A study of Mus musculus with 6 samples.

Results

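The Hox genes code for homeodomain transcription factors that give cells their position along the body axis. In the mouse they lie in 4 clusters, Hoxa on chromosome 6, Hoxb on chromosome 11, Hoxc on chromosome 15 and Hoxd on chromosome 2, and a number tells which members of different clusters are copies of one ancestral gene (paralogues). Low-numbered genes lie at the 3′ end of a cluster, are switched on early by retinoic acid and pattern the hindbrain and neck, whereas high-numbered genes lie at the 5′ end and pattern the lumbar, tail and distal limb regions. Adult endothelial and stromal cells keep part of the Hox pattern of the place they came from, and several members are known to raise or lower angiogenic behavior in endothelial cells. Hox proteins bind DNA together with cofactors of the TALE class (Pbx, Meis and Pknox proteins), and Polycomb and Trithorax complexes keep Hox genes silent or active.

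All spots that were not controls and whose annotation gave a Hoxa, Hoxb, Hoxc or Hoxd symbol followed by a number were taken from 6 microarrays. This gave 62 spots of 44 probes for 39 genes, out of 59305 spots, 55681 probes and 22498 gene symbols. The arrays compare a control line (1G11-mock) with a line that overexpresses the extracellular superoxide dismutase SOD3 (1G11-SOD3), both derived from 1G11, a microvascular endothelial line from the mouse (strain C57BL/6NCrLBR). Before RNA was taken, both had been exposed for 6 h to medium in which the murine mammary tumor line N202.1A had grown, so the arrays hold no sample without that medium. There were 3 single-color Agilent SurePrint Mouse G3 arrays per line, each from an independent experiment. All 6 lay on 1 slide, the 1G11-mock arrays in one row of it and the 1G11-SOD3 arrays in the other, so that line and slide row cannot be told apart. The sources used here do not say whether a line is 1 clone, and effects of SOD3 and differences between 2 cultured lines cannot be told apart either.

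Values are log2 intensities after background correction and quantile normalization, and a difference is always 1G11-SOD3 minus 1G11-mock. Levels of different probes depend on their sequences and were not set against each other. A probe was called higher or lower where the lines differed over 2-fold and the adjusted p was below 0.05, from limma with Benjamini-Hochberg adjustment over all 55681 probes. With 3 arrays per line, an exact 2-sided permutation test of 1 probe cannot go below a p of 0.1. *Sod3* itself read 9.86 to 13.61 on the 1G11-mock and 16.27 to 16.37 on the 1G11-SOD3 arrays. Its spot lay in the middle of the array, described next, and its difference of 4.27 (adjusted p = 0.00791) was 2.65 after position adjustment (adjusted p = 0.0136), called either way. Of the 12 endothelial markers looked at, *Kdr*, *Eng*, *Vwf* and *Esam* were well above background on all 6 arrays. *Flt1* was so on 2 and 3, *Pecam1* on 2 and 2 and *Cldn5* on 1 and 0 arrays of 1G11-mock and 1G11-SOD3. For *Kdr* this holds for its brightest probe, and its other probe (6.83 to 6.95) was well above background on no array. *Cdh5*, *Tek*, *Tie1*, *Erg* and *Emcn* were so on no array, and the cells are called by the name of the line below.

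Spots in the middle of the array (a block of 128 rows and 55 columns, in an array of 384 rows and 164 columns) are described apart. Of the probes printed 10 times, 128 with a mean above 9 had copies both there and elsewhere. Their middle copies read lower than the other copies by a median log2 difference of -0.67, -0.87 and -2.42 on 1G11-mock arrays 1, 2 and 3, against 0.15, -0.18 and 0.10 on the 1G11-SOD3 arrays. Copies of one sequence thus read dimmer in the middle of the 1G11-mock arrays than elsewhere on them. The Hox spots that lay there were those of *Hoxa5*, *Hoxb5* and *Hoxc4*. A position-adjusted value, from which a smooth surface over row and column was taken off each array, is given where it bears on a result.

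**Figure D1:**
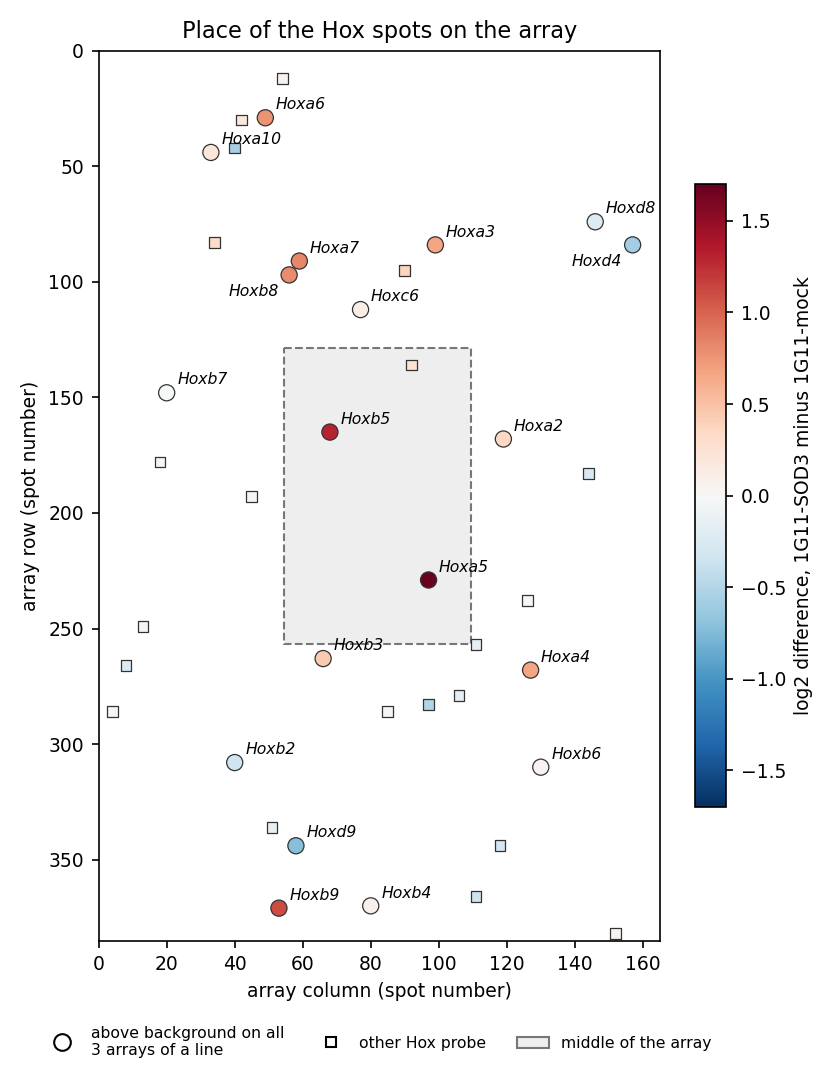
Row and column of 40 Hox probes printed once, colored by the log2 difference between the lines (1G11-SOD3 minus 1G11-mock). Circles are probes well above background on all 3 arrays of at least 1 line, and squares are the other probes. The dashed box is the middle of the array, where *Hoxa5* and *Hoxb5* had differences of 1.68 and 1.31.

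What a Hox probe can tell depends on the stretch of transcript it holds, and the probes below are shown because results turn on them or because they lie in the part that paralogues share. Sequences are those of the array annotation, 5′ to 3′ on the strand of the transcript. Their positions are in a mouse build that is not given in the sources used here. It was not GRCm38, in which 0 of the 44 probes lie inside the gene of their symbol. In the *Hoxa6* probe the capitals mark TACCCNTGGATG, the codons of the core of the hexapeptide with which Hox proteins hold Pbx. In that of *Hoxc11* they mark TGGTTNCAGAAC, codons of the DNA-binding helix of the homeodomain.
Hoxa6 (chr6:52158194-52158253, minus strand): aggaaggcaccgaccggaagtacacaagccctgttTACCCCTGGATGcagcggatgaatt
Hoxc11 (chr15:102787022-102787081, plus strand): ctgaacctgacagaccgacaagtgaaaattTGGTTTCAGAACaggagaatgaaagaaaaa

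The homeodomain motif occurred in 2 of 44 Hox probes and in 9 of all 55681 probes (0.0162%), read on the strand of the probe only. The hexapeptide motif occurred in the *Hoxa6* probe and in no other of the 55681. The probes of *Hoxa5*, *Hoxb5* and *Hoxb9* hold neither motif. For these, 30 of the 60 bases are given.
Hoxa5, first 30 bases (chr6:52152049-52152108, minus strand): gtgtaattaatgctgttgtagaggtgactt
Hoxb5, first 30 bases (chr11:96167130-96167189, plus strand): taggccccacaaggcctagtctggaagcgt
Hoxb9, first 30 bases (chr11:96137748-96137807, plus strand): gcttgtgttttgtgatttctttggcagtga

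The 1G11 cells expressed the 3′ and central parts of the Hoxa and Hoxb clusters, a few members of Hoxd and little of Hoxc. A gene was counted as well above background on an array where the scanner software set that flag for at least 1 of its probes. In 1G11-mock cells 14 of 39 genes were above background on all 3 arrays, and in 1G11-SOD3 cells 20 were, the 14 among them. By probe, 14 and 20 of the 44 Hox probes were so, where 30.1% and 34.7% of all probes on the array were. A further 16 genes were above background on no array. Counted by probe, 20 of 44 Hox probes were above background on all 3 arrays of at least 1 line, against 35.5% of all probes.

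By cluster, 8 of 11 Hoxa genes and 8 of 10 Hoxb genes were above background on all 3 arrays of a line, against 1 of 9 Hoxc genes and 3 of 9 Hoxd genes. The detected genes included unbroken runs from *Hoxa2* to *Hoxa7* and from *Hoxb2* to *Hoxb9*, both complete in 1G11-SOD3 cells. By paralogue number, 5 of 8 genes numbered 1 to 3, 12 of 15 numbered 4 to 8 and 3 of 7 numbered 9 or 10 were above background on all 3 arrays of a line. Of the 9 genes numbered 11 to 13, which pattern the distal limb, the tail and the urogenital tract, 0 were. Among these *Hoxc12* alone was detected at all, above background on 1 of 3 1G11-mock arrays with readings of 7.15 to 8.30 over the 6 arrays.

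**Figure D2:**
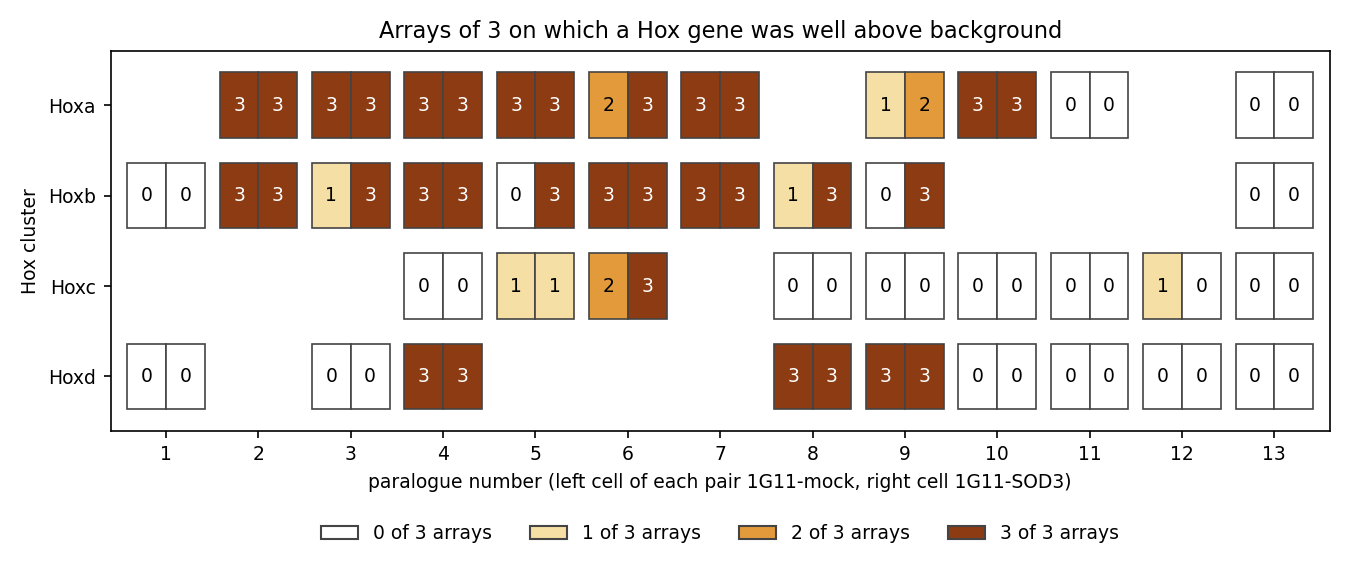
Number of arrays, of 3, on which 38 Hox genes were well above background, by cluster (rows) and paralogue number (columns), with 1G11-mock in the left and 1G11-SOD3 in the right cell of each pair. Right cells with all 3 arrays run from paralogue 2 to 7 in Hoxa, where *Hoxa10* also has them, and from 2 to 9 in Hoxb. The left cells of *Hoxb5* and *Hoxb9* are empty. The genes numbered 11 to 13 are empty apart from 1 array for *Hoxc12*.

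Among genes not above background here are several known to act in endothelium or in tissue identity. *Hoxd3*, which drives the invasive, angiogenic state of endothelial cells, read 7.25 to 7.67 in control and 7.39 to 7.78 in SOD3-overexpressing cells and was above background on no array. *Hoxd10*, known to hold back endothelial migration, read 6.09 to 7.30 and 6.32 to 7.07 in the same order and was likewise not above background. The same held for *Hoxb1*, the gene of hindbrain segment identity, for *Hoxc8*, *Hoxc9* and *Hoxc10* of the thoracic and lumbar spine, for *Hoxc11*, *Hoxc13* (hair and nail), *Hoxb13* (prostate and tail), *Hoxa11* and *Hoxa13* (uterus, kidney and digits), *Hoxd1*, *Hoxd11*, *Hoxd12* and *Hoxd13*. *Hoxc4* was above background on no array either, but its spot lay in the middle of the array. *Hoxa11os*, the antisense transcript of *Hoxa11*, read 6.83 to 7.50 over the 6 arrays and was not above background. For a probe not well above background only an upper bound was measured, which is not the same as no transcript.

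*Hoxa9* and *Hoxc5* were between these states. *Hoxa9*, which is needed for endothelial and blood progenitor growth and is a leukemia gene, was above background with 1 of its 2 probes on 1 1G11-mock and 2 1G11-SOD3 arrays, reading 7.56 to 8.33 and 7.53 to 8.21. *Hoxc5*, a gene of the neck region, was above background on 1 array of each line, with readings of 8.11 to 8.86 on the 1G11-mock arrays and of 7.35 to 8.32 on the others. The lines overlapped for either gene.

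6 genes were above background on all 3 1G11-SOD3 arrays but not on all 3 1G11-mock arrays, namely *Hoxa6*, *Hoxb3*, *Hoxb5*, *Hoxb8*, *Hoxb9* and *Hoxc6*, and none the other way round. Over all probes the corresponding shares were 5.46% and 0.849%, so detection was wider on the 1G11-SOD3 arrays in general (38.4% to 43.8% of spots per array against 34.2% to 36.0%). *Hoxb5* lay in the dim middle. All 6 enter the counts of detected probes below through the 1G11-SOD3 arrays only.

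Probes for different parts of one transcript did not always read alike. In *Hoxb3* the probe for the coding part was above background on 0 1G11-mock and 2 1G11-SOD3 arrays (7.25 to 8.57), whereas the other probe, for a later stretch of the transcript, was so on 1 and 3. The 2 probes of *Hoxa13* and of *Hoxd11* were below background on every array.

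In the comparison of the lines, 0 of the 41 Hox probes outside the middle were called higher and 0 lower by limma. Of all probes outside the middle, 0.646% were called higher and 1.18% lower. At an unadjusted p under 0.05 there were 4 Hox probes, where 12.7% of all probes outside the middle were. They were those of *Hoxb9* and *Hoxa7* with the higher mean in 1G11-SOD3 and of *Hoxd4* and *Hoxd9* with the higher mean in 1G11-mock cells. The lines did not overlap for 3 probes that read higher in 1G11-SOD3 (*Hoxa11* and *Hoxb9* among them) and for 5 that read lower (*Hoxb1*, *Hoxb2*, *Hoxb13*, *Hoxd4* and *Hoxd13*), where 8.23% and 11.3% of all probes outside the middle did not overlap. These shares are near those of the Hox probes, and *Hoxa11*, *Hoxb1*, *Hoxb13* and *Hoxd13* were below background. Other settings called 0 or 1 Hox probe higher outside the middle (*Hoxb9*), and the processed signal called 5 (12.2%) lower, where it called 14.6% of all probes outside the middle lower.

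*Hoxb9*, a thoracic patterning gene whose product is known to induce angiogenic factors in tumors, had the largest difference outside the middle among the 18 detected probes. It read 7.53, 8.15 and 7.70 on the 1G11-mock arrays and 9.20, 9.09 and 8.43 on the 1G11-SOD3 arrays. The 2 lines were thus fully apart, and the gene was detected on all 3 1G11-SOD3 arrays but on 0 of the 1G11-mock arrays. The difference was 1.11 on the log2 scale (SE 0.275, 95% confidence interval 0.51 to 1.72), with an adjusted p of 0.0551 (limma), just outside the threshold. Since no 1G11-mock array measured it, the fold is a bound of at least 1.92-fold higher, reckoned against the lowest probe that was well above background on each 1G11-mock array or the probe's own reading where that was higher. With the replicate number as a block the adjusted p was 0.0313, and with position adjustment the difference was 1.35 (adjusted p = 0.0498). Over all settings that kept the 6 arrays the difference ran from 0.76 to 2.48, the latter with the processed signal, and the adjusted p from 0.0216 to 0.125, and with 1 array left out from 0.0503 to 0.212. Its spot lay at row 371 and column 53, away from the middle.

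The 7 detected Hoxa probes outside the middle all had their higher mean in 1G11-SOD3 cells, with a median difference of 0.67, and none of them was called. That of *Hoxa6* counts as detected through the 1G11-SOD3 arrays only, so its direction is not independent of the detection rule. Of all detected probes outside the middle 39.4% had the higher mean in 1G11-SOD3, with a median of -0.13. After position adjustment the 7 were again above 0, with a median of 0.46, against 56.1% of all detected probes and a median of 0.06. Each of the 7 stayed above 0 in every setting with 6 arrays, but *Hoxa2* and *Hoxa10* came to -0.01 without 1G11-mock array 3 and to -0.05 without 1G11-SOD3 array 1. Over all 13 Hoxa probes outside the middle, those below background included, 11 differences were above 0 and the median was 0.35, against -0.06 over all probes there.

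*Hoxa7*, which patterns the thoracic spine, read 11.78, 10.83 and 10.77 in 1G11-mock and 11.99, 12.54 and 11.36 in 1G11-SOD3 cells. The lines overlapped by 1 array, and the difference was 0.83 (95% confidence interval 0.07 to 1.60, adjusted p = 0.299, limma). After position adjustment the difference of *Hoxa7* was 0.55 (-0.11 to 1.21), an interval that includes 0. *Hoxa6*, its neighbor, read 9.03, 8.82 and 7.55 against 9.59, 9.14 and 9.0. The 1G11-SOD3 arrays lay close together, whereas 1G11-mock array 3 lay far below the others, and the difference was 0.77 (-0.02 to 1.57).

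*Hoxa3*, which shapes the thymus and neck arteries and promotes endothelial migration in wounds, read 12.96, 12.55 and 11.42 against 12.83, 12.70 and 13.43. Here too the lowest reading was that of 1G11-mock array 3, the lines overlapped, and the difference was 0.67 (-0.14 to 1.48), or 0.46 (-0.21 to 1.13) after position adjustment. *Hoxa4*, a gene of the neck spine, read 10.46, 11.01 and 10.72 against 10.67, 11.49 and 12.06, a difference of 0.67 (-0.05 to 1.40). For *Hoxa4* the 1G11-SOD3 arrays were spread more widely than the 1G11-mock arrays, and the position-adjusted difference was 0.77 (0.17 to 1.38).

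*Hoxa2*, the selector of the jaw-forming arches, read 11.13, 11.23 and 10.09 against 11.35, 11.04 and 11.12, a difference of 0.35 (-0.32 to 1.02), which was -0.01 without 1G11-mock array 3. *Hoxa10*, of the lumbar spine and uterus, read 9.89, 10.13 and 9.96 against 10.70, 10.12 and 9.77, and its difference of 0.20 (-0.38 to 0.78) lay within the range over which the 1G11-SOD3 readings varied. The adjusted p of the 7 detected Hoxa probes outside the middle was 0.299 to 0.791 (limma).

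1G11-mock array 3 gave the lowest of the 6 readings for 10 of the 20 detected Hox probes and for 23.2% of all probes detected to the same rule. It was also the array with the dimmest middle. Without it the median over the 13 Hoxa probes was 0.23.

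**Figure D3:**
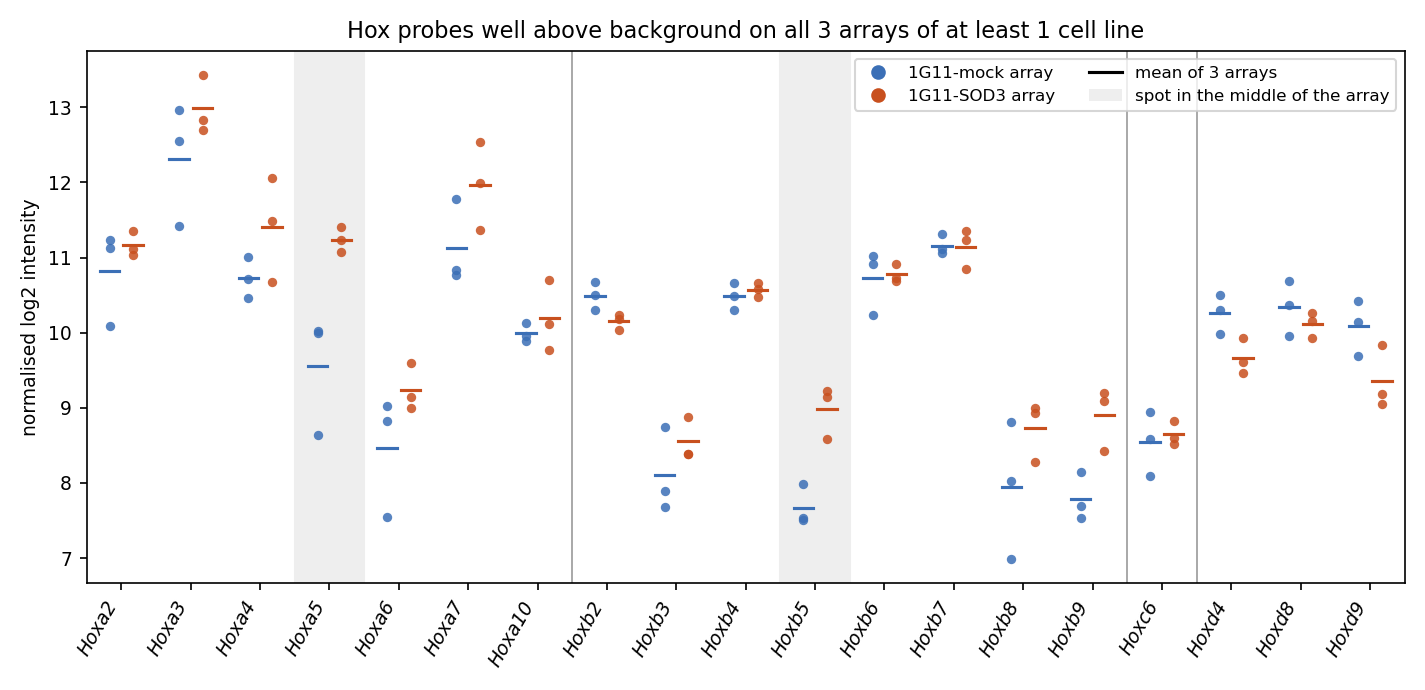
Normalised log2 intensity of 19 Hox probes well above background on all 3 arrays of at least 1 line, with 1 point per array and a bar at the mean of 3 arrays. Heights are compared between the lines within a gene, not between genes. The lines are apart for *Hoxa5* and *Hoxb5* (gray, in the middle of the array) and for *Hoxb9*, higher in 1G11-SOD3, and for *Hoxb2* and *Hoxd4*, lower in it, and 1G11-mock readings spread widely for *Hoxa3*, *Hoxa5*, *Hoxa6* and *Hoxb8*.

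Of the detected Hoxb probes outside the middle, none was called, and those of *Hoxb4*, *Hoxb6* and *Hoxb7* had the smallest differences. *Hoxb4*, known for expanding blood stem cells, read 10.49, 10.66 and 10.30 in 1G11-mock and 10.58, 10.47 and 10.66 in 1G11-SOD3 cells, and its difference of 0.09 had an interval of -0.39 to 0.57. *Hoxb7*, an activator of fibroblast growth factor and other angiogenic genes in tumors, read 11.31, 11.11 and 11.06 against 11.35, 11.24 and 10.85, a difference of -0.01 (-0.51 to 0.50). *Hoxb6*, of the trunk and limb bud mesoderm, read 10.23, 11.02 and 10.92 against 10.73, 10.92 and 10.69, a difference of 0.05 (-0.51 to 0.62). For these 3 genes the lines overlapped, and each interval as normalized excludes a 2-fold change in either direction. After position adjustment the difference of *Hoxb4* was 0.52 (-0.07 to 1.10), an interval that includes 2-fold, and those of *Hoxb6* and *Hoxb7* were 0.15 (-0.46 to 0.75) and 0.29 (-0.17 to 0.75).

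*Hoxb2*, which acts below *Hoxb1* in the hindbrain, read 10.50, 10.30 and 10.67 against 10.24, 10.18 and 10.04. Its lines did not overlap, but the difference of -0.34 (-0.82 to 0.14) turned to 0.17 after position adjustment. *Hoxb8*, which acts in myeloid cells and in grooming behavior, read 8.81, 8.02 and 6.99 against 9.0, 8.93 and 8.28, a difference of 0.80 (-0.08 to 1.68). It was above background on 1 of 3 1G11-mock arrays. *Hoxb3*, reported to drive capillary formation through ephrin A1, read 8.74, 7.68 and 7.89 against 8.39, 8.39 and 8.88 with its later probe, a difference of 0.45 (-0.21 to 1.10), and the gene was likewise above background on 1 of 3 1G11-mock arrays. The adjusted p of these 6 genes was 0.400 to 0.992 (limma). Over the 10 Hoxb probes outside the middle the median was 0.06, and 0.30 after position adjustment.

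The 3 detected Hoxd probes all had the lower mean in 1G11-SOD3 cells, opposite to Hoxa, with a median of -0.59. *Hoxd9*, of the limb and lumbar spine, read 9.69, 10.14 and 10.42 in 1G11-mock and 9.83, 9.05 and 9.19 in 1G11-SOD3 cells, a difference of -0.73 (-1.35 to -0.11, adjusted p = 0.253, limma). *Hoxd4*, which sets a boundary in the hindbrain, read 9.98, 10.50 and 10.30 against 9.46, 9.61 and 9.93. The 1G11-SOD3 readings of *Hoxd4* all lay under the 1G11-mock readings, and the difference was -0.59 (-1.12 to -0.07, adjusted p = 0.280). *Hoxd8* read 9.95, 10.37 and 10.69 against 10.26, 10.15 and 9.93, a difference of -0.23 (-0.78 to 0.32). *Hoxd9* and *Hoxd4* stayed below 0 in every setting, at -0.51 and -0.25 after position adjustment, whereas *Hoxd8* turned to 0.05 there. Of all detected probes outside the middle 60.6% had the lower mean in 1G11-SOD3. Over the 10 Hoxd probes outside the middle 8 were below 0, with a median of -0.19, against 56.1% and -0.06 over all probes there. The contrast between Hoxa and Hoxd was not tested, since the clusters were looked at with these values known.

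*Hoxc6*, a thoracic gene also active in the breast and the one Hoxc gene detected throughout a line, read 8.95, 8.58 and 8.09 in 1G11-mock and 8.83, 8.52 and 8.60 in 1G11-SOD3 cells. The difference of 0.11 (-0.46 to 0.68) became -0.55 (-1.02 to -0.07) after position adjustment, its spot lying at row 112 and column 77, close to the middle. Over the 8 Hoxc probes outside the middle the median was -0.03, and the differences ran from -0.56 (*Hoxc5*) to 0.18 (*Hoxc13*).

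**Figure D4:**
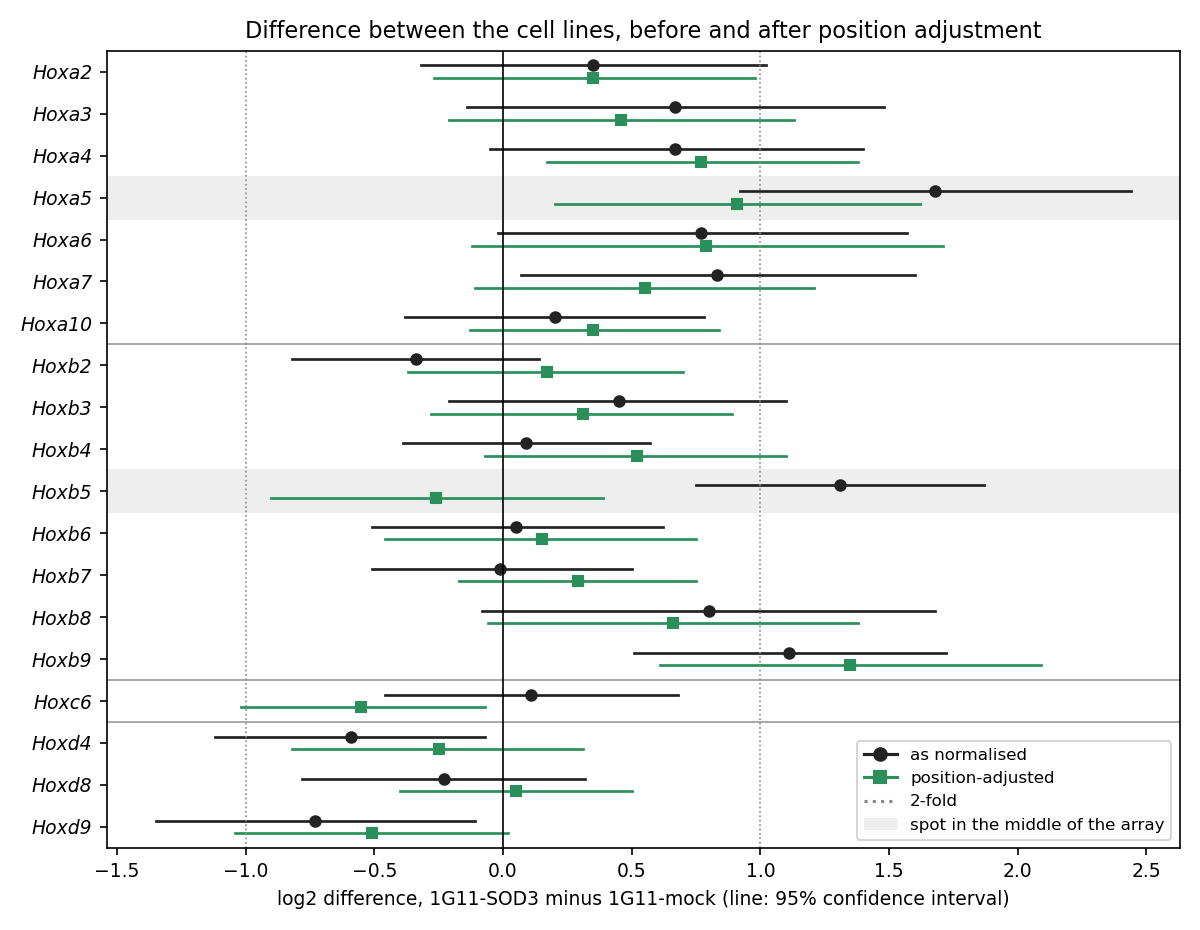
Log2 difference between the lines (1G11-SOD3 minus 1G11-mock) with its 95% confidence interval for 19 detected Hox probes, as normalized (circles) and after position adjustment (squares). Dotted lines mark a 2-fold change. *Hoxb5* moves from 1.31 to -0.26 and *Hoxa5* from 1.68 to 0.91, whereas *Hoxb9* stays at 1.11 and 1.35.

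In the middle of the array, 2 of 3 Hox probes were called higher in 1G11-SOD3 cells, where 11.6% of all probes in the middle were called higher and 0.0487% lower. *Hoxa5*, which directs lung and neck development and in endothelium acts against vessel sprouting, read 10.02, 10 and 8.64 on the 1G11-mock and 11.07, 11.24 and 11.41 on the 1G11-SOD3 arrays. It was above background on all 6 arrays, the lines did not overlap, and the difference was 1.68 (SE 0.347, 0.92 to 2.44, adjusted p = 0.0249, limma). At its spot the position surface alone differed by 1.26 between the lines. The position-adjusted difference was 0.91 (0.20 to 1.62, adjusted p = 0.140), under 2-fold and not called. The call was also lost without 1G11-SOD3 array 1, 2 or 3 (differences of 1.77, 1.68 and 1.60, adjusted p of 0.0642, 0.0674 and 0.112).

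*Hoxb5*, an activator of the VEGF receptor gene *Kdr* in endothelial precursors, read 7.98, 7.53 and 7.51 against 9.14, 8.58 and 9.23. It was above background on 0 and 3 arrays, and its difference of 1.31 (SE 0.256, 0.75 to 1.87, adjusted p = 0.0194) gives at least 2.12-fold higher in 1G11-SOD3 cells as normalized. The surface at its spot differed by 2.05, more than the probe did, and the position-adjusted difference was -0.26 (-0.90 to 0.39, adjusted p = 0.655). Without 1G11-mock array 2 or 3 or 1G11-SOD3 array 1 or 3 the call was lost as well, with differences of 1.24, 1.23, 1.23 and 1.19 and an adjusted p of 0.0607 to 0.0906. *Hoxc4*, read 6.51 to 7.15 against 6.77 to 7.22, was below background. After position adjustment 0 of these 3 probes were called, and the values as normalized of *Hoxa5* and *Hoxb5* cannot be told apart from their place on the array. For *Hoxa5* an interval above 0 remained.

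The cofactors with which Hox proteins bind DNA were expressed in both lines. All 9 TALE genes were above background on all 3 1G11-SOD3 arrays and 8 on all 3 1G11-mock arrays. By the probe with the highest mean, 2 were called higher (*Pknox1* and *Pknox2*) and 1 lower (*Meis2*), and the median of the 9 was 0.31. Of all probes on the array 1.86% were called higher and 1.05% lower.

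*Pknox2*, a Meis-related partner of Pbx proteins, rose from 9.18, 9.0 and 8.96 in 1G11-mock to 10.88, 11.06 and 10.71 in 1G11-SOD3 cells. The lines lay far apart beside the spread within each, and the difference was 1.84 (SE 0.219, 1.36 to 2.32, adjusted p = 0.00137, limma), or 3.57-fold. It was 1.96 after position adjustment (adjusted p = 0.00313) and was called in every setting. *Meis2*, a Hox cofactor and a marker of retinoic acid exposed tissue, fell from 14.21, 14.15 and 14.14 to 12.98, 13.01 and 13.33, without overlap. Its difference was -1.06 (-1.54 to -0.58, adjusted p = 0.0243), close to the 2-fold limit, and -0.77 after position adjustment (adjusted p = 0.106). The call of *Meis2* also went with any 1 array left out but 1G11-SOD3 array 3, at an adjusted p of 0.0503 to 0.111 and differences near the 2-fold limit. It was also lost with an offset of 16 (-1.06, adjusted p = 0.0653), the processed signal (-0.72, 0.0930) and scaling to the 75th percentile (-0.89, 0.0885).

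*Pbx3* read 12.95, 13 and 12.22 against 13.64, 13.53 and 13.75, a difference of 0.92 (0.35 to 1.48, adjusted p = 0.0952). *Pbx2* read 11.15, 10.83 and 9.62 against 11.75, 11.83 and 11.39, a difference of 1.12 (0.34 to 1.90, adjusted p = 0.143), and 0.64 after position adjustment. Neither overlapped between the lines, and neither passed the threshold, though with the replicate number as a block *Pbx2* did (adjusted p = 0.0391). *Meis1*, the cofactor of *Hoxa9* in leukemia, read 11.10, 11 and 10.20 against 11.25, 11.01 and 10.96, a difference of 0.31 (-0.29 to 0.91). *Pbx4* read 9.23, 9.21 and 8.72 against 9.07, 8.77 and 8.68, a difference of -0.21 (-0.74 to 0.31). Neither of these was called.

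For 2 cofactors, probes in and outside the middle read differently, and whether their place or their sequence set them apart was not tested. *Pknox1* was called higher by a probe in the middle, with 7.92, 7.21 and 7.49 against 9.69, 9.29 and 9.52. That probe's difference of 1.96 became -0.47 after position adjustment, and the gene's other probe, outside the middle, differed by 0.44 (-0.07 to 0.96, adjusted p = 0.436). *Meis3* read 12.60, 12.94 and 12.61 against 12.40, 12.89 and 12.81 with its brightest probe, a difference of -0.01 (-0.53 to 0.50), whereas its probe in the middle differed by 2.77 and, after position adjustment, by 0.41.

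**Figure D5:**
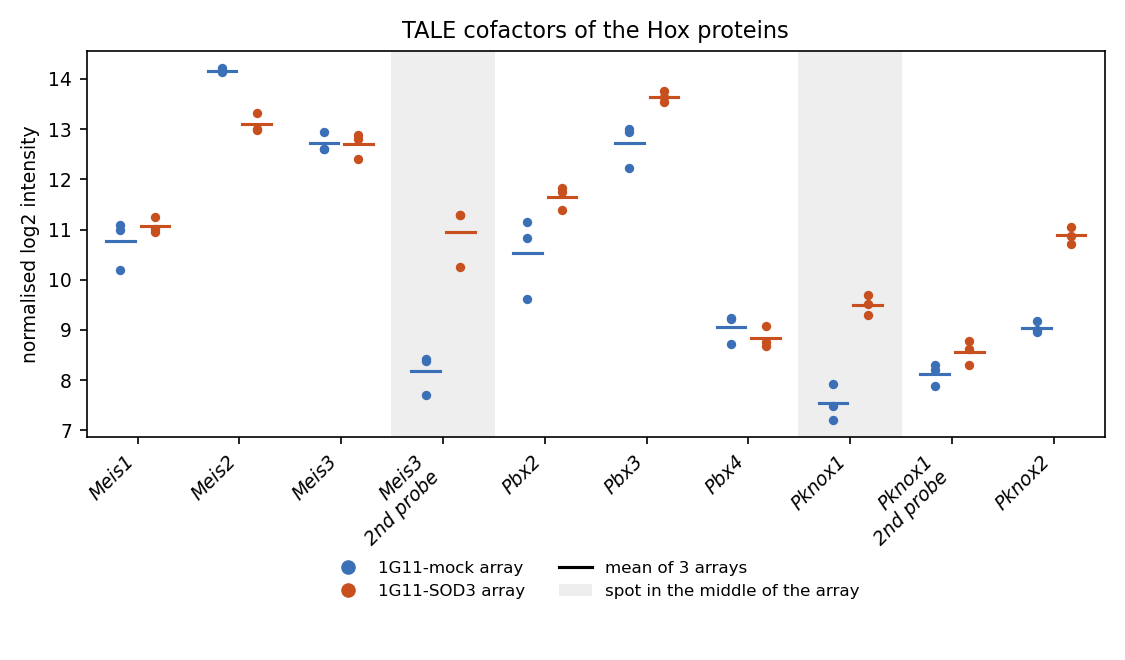
Normalised log2 intensity of 8 TALE cofactors by their probe with the highest mean, and of the next probe of *Meis3* and *Pknox1*, with 1 point per array and a bar at the mean of 3 arrays. Gray marks spots in the middle of the array. *Pknox2* is apart between the lines in one direction and *Meis2* in the other, and the gray probes of *Meis3* and *Pknox1* differ by 2.77 and 1.96 where the other probes of these genes differ by -0.01 and 0.44.

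Among 12 genes that act upstream of Hox genes, 0 were called higher and 1 lower. *Cyp26b1*, an enzyme that breaks down retinoic acid, fell from 12.47, 12.82 and 13.71 in 1G11-mock to 9.99, 10.13 and 9.94 in 1G11-SOD3 cells. The difference was -2.98 (SE 0.303, -3.65 to -2.31, adjusted p = 0.000496, limma), a 7.89-fold lower level, and it was -2.75 after position adjustment. The retinoic acid receptors *Rara* and *Rarg* were above background on all 6 arrays with differences of -0.14 and -0.10, whereas *Rarb*, *Cyp26a1*, the synthesizing enzyme *Aldh1a2* and the caudal genes *Cdx1*, *Cdx2* and *Cdx4* were above background on no array.

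Of 23 genes of the Polycomb complexes, which keep Hox genes silent, 21 were above background on all 6 arrays, 0 were called higher and 1 lower, with a median of -0.11. The 1 was *Rnf2*, the ubiquitin ligase of the complex, with 11.39, 10.79 and 11.92 against 10.22, 10.05 and 10.20. Its difference of -1.21 (-1.84 to -0.58, adjusted p = 0.0459) was -0.53 after position adjustment (adjusted p = 0.257), and of the 6 fits with 1 array left out only that without 1G11-mock array 2 kept the call (differences of -1.24 to -0.93 and an adjusted p of 0.0970 to 0.150 in the others). It was also lost without background correction (adjusted p = 0.0671), with an offset of 16 (0.0812) and with the processed signal (-0.51, 0.262). A lesser probe of *Ezh1*, a histone methyltransferase of the complex, was also called lower (-1.07, adjusted p = 0.0482), but its brightest probe was not (-0.67, adjusted p = 0.210). Of 11 genes of the Trithorax complexes, which keep Hox genes active, 10 were above background on all 6 arrays and 0 were called by their brightest probe, with a median of -0.19. *Dpy30* was called higher by a probe in the middle.

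Of the genes beside the clusters and the other positional factors 0 were called, and after position adjustment 1 was, *Skap1* in the middle. That probe was above background on no array, read -0.20 between the lines as normalized, and had a surface difference of 2.29 taken off. Of 14 neighbors of the clusters 9 were above background on all 3 1G11-SOD3 arrays, and *Evx1* and *Evx2*, the homeobox genes at the 5′ ends of Hoxa and Hoxd, were so on no array. Of 16 other factors of position 10 were above background on no array. Those above it on all 6 arrays included *Gata4*, *Tbx5* and *Foxf1*, which mark heart and lung mesoderm, and *Pitx1* of the hindlimb, with differences of -0.24, -0.29, 0.70 and -0.19. The noncoding RNAs of the clusters on the list (*Hotair*, *Hottip* and 10 others) were matched to no probe by symbol or accession.

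Among 8 genes tied to Hox proteins in endothelium, *Itgb3*, the integrin chain that *Hoxd3* is known to induce, was called higher with 10.88, 10.61 and 9.97 against 11.62, 11.66 and 12.26. Both its probes lay in the middle of the array. Its other probe (7.11 to 7.95) was above background on 0 1G11-mock and 1 1G11-SOD3 arrays. That probe differed by 0.13 (-0.43 to 0.70), or by -0.95 after position adjustment, and was not called. For the brighter probe the difference of 1.36 (0.72 to 1.99, adjusted p = 0.0289) was 0.75 after position adjustment (adjusted p = 0.120). Of the 6 arrays, only leaving out 1G11-mock array 1 kept the call, and the other fits gave differences of 1.10 to 1.47 and an adjusted p of 0.0593 to 0.122. It was also lost with an offset of 16 (adjusted p = 0.0550) and with the processed signal (0.67, 0.121). *Kdr* read 12.98, 12.94 and 12.76 against 12.41, 12.44 and 12.32 with its brightest probe, a difference of -0.50 that was not called. Its other probe was above background on no array. *Nos3*, *Efna1*, *Ephb4* and *Itga5* were above background on all 6 arrays and not called, and *Sele* was above background on no array.

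Several markers of stromal cells moved between the lines, and Hox patterns differ between stromal cells of different origin. Of 11 fibroblast and mural markers 6 were called higher in 1G11-SOD3 cells and 0 lower, with a median of 1.43. Of all probes on the array 1.86% were called higher and 1.05% lower. *Col1a1* and *Col3a1*, fibrillar collagens, rose by 3.10 and 1.43 on the log2 scale, from 12.15, 11.31 and 10.50 to 14.43, 14.02 and 14.81 and from 15.28, 15.51 and 15.74 to 16.65, 16.59 and 17.59. The spot of *Col1a1* lay close to the middle. After position adjustment the differences of *Col1a1* and *Col3a1* were 2.50 and 1.66, and both were still called. *Pdgfrb*, the growth factor receptor of mural cells, rose by 2.39, from 8.41, 8.25 and 8.12 to 10.68, 10.48 and 10.79. *Acta2*, smooth muscle actin, rose by 3.01, from 9.90, 10.09 and 9.96 to 13.48, 13.15 and 12.36. The lines did not overlap for any of these 4. *Lum*, a matrix proteoglycan, and *Cnn1*, calponin of smooth muscle, were above background on no 1G11-mock array and are given as bounds. *Lum* was at least 2.55-fold higher (7.63, 7.55 and 6.90 against 8.81, 8.61 and 10.33) and *Cnn1* at least 5.35-fold higher (7.27, 7.38 and 7.52 against 10.76, 11.02 and 9.17). The mean log2 intensity over the 11 genes was 9.68 to 9.86 on the 1G11-mock and 10.91 to 11.29 on the 1G11-SOD3 arrays. Single arrays decided some of these calls, that of *Col3a1* being lost without 1G11-mock array 1 or 2 or 1G11-SOD3 array 3 (differences of 1.32, 1.43 and 1.11, adjusted p of 0.0676 to 0.0927) and that of *Lum* without any one 1G11-mock array or 1G11-SOD3 array 3 (differences of 1.35 to 2.02, adjusted p of 0.0508 to 0.113). *Thy1*, *Myh11* and *Rgs5* were above background on at most 1 array, with differences of -0.37, -0.30 and -0.54, and for *Rgs5* the lines did not overlap. *Pdgfra* (0.52) and *Dcn* (0.29) were above background on all 6 arrays and not called. *Dcn* read 14.78, 14.47 and 14.04 against 13.52, 13.58 and 17.07, so 1G11-SOD3 arrays 1 and 2 lay below every 1G11-mock array. Of the 12 endothelial markers *Vwf* fell by 1.65 on the log2 scale, from 10.24, 10.07 and 10.16 to 8.74, 8.61 and 8.17, and 0 rose. With the replicate block *Flt1* and *Esam*, both in the middle, were called higher (adjusted p of 0.0237 and 0.0473), with position-adjusted differences of 0.20 and -0.47. The mean over the endothelial list was 8.64 to 8.93 in control and 8.59 to 8.98 in SOD3-overexpressing cells. That mean includes *Flt1* and *Esam*, which differed by 1.07 and 1.22 as normalized. Outside the middle *Eng* fell by 1.05 without overlap (adjusted p = 0.0848, limma), or by 0.71 after position adjustment, and was not called. *Kdr* (-0.50) and *Pecam1* (-0.51) also had lower means. *Cdh5*, *Tie1*, *Erg* and *Emcn* had higher means but were above background on no array. Of 7 epithelial markers *Krt19* alone was above background on all 6 arrays, *Epcam*, *Krt18* and *Cldn4* on none. *Cdh1* was so on 0 1G11-mock and 3 1G11-SOD3 arrays, *Krt8* on 0 and 1, and *Grhl2* on 2 and 3 with its brighter probe, in the middle. Of 6 leukocyte markers *Itgam* and *Cd3e* were so on all 6 arrays and *Ptprc*, *Cd68* and *Lyz2* on none. For *Itgam* this holds for its brightest probe, and its other probes (7.38 to 7.77) were well above background on no array. No epithelial or leukocyte marker was called, and the means over these lists were 8.85 to 8.98 against 8.73 to 8.77 and 8.73 to 9.27 against 8.83 to 9.06. The part of these shifts in the Hox values was not tested, and in bulk RNA a change in the share of cells and a change per cell cannot be told apart.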

How the data were processed

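Per the file headers, the deposited intensity values (mean and local background of each spot, not normalized between arrays, and a processed signal) were extracted with Agilent Feature Extraction 10.7.3.1. A further table by the authors holds log2 values after normexp correction (offset of 50) and quantile normalization. Its columns have medians of 7.57 to 7.58, correlated with the recomputed values at 0.999 or above across spots, and served as an alternative. The submitters' processing notes name limma.

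From the scanner output, mean intensities were corrected with normexp on the local background median (offset of 50), control spots were left out, log2 values were quantile normalized, outlier spots (133 to 197 per array) were dropped and spots of a probe were averaged. A probe counted as well above background on an array where at least 1 of each 2 of its used spots carried that flag. No spot was saturated. The number of arrays, 3 per line, limits the precision. Whether the 3 experiments used separate stocks of cells is not stated, so p-values measure the spread between these arrays. Lines were compared by limma 3.58.1 in R 4.3.3, with Benjamini-Hochberg adjustment over 55681 probes. On simulated data with 200 changed probes among 55592 in this comparison (100 changed by 2 and 100 by 3 on the log2 scale), all 200 were found and 3 others were called. The simulated noise was independent, had the same spread for every probe and held no dim middle, and only brighter probes were changed. All Hox differences were smaller than the simulated ones, so the simulation does not tell how often such differences are missed or wrongly called.

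The members, the gene lists and the position adjustment were chosen with earlier results of these data known. Every Hox gene is named, save that some genes and sequences are not reported here, though they stay in the counts. Values per array are given for each Hox probe well above background on all 3 arrays of at least 1 line, for TALE cofactors detected likewise and for called members of the other lists, each gene by its probe with the highest mean. Genes named beyond these were picked after their values were seen. Probes were matched by symbol or by RefSeq accession. The position surface (mgcv 1.9.3, 24 by 14 basis functions) was fitted to deviations from the mean of the 6 arrays. With probes printed 10 times held out, it lowered the spread (root mean square SD) of the difference between the lines among copies of a probe from 0.664 to 0.215.

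Replicate numbers stand in the sample titles, which do not say what a number marks. Over the 16279 probes above background on all 6 arrays, the deviations of same-numbered arrays from their group means correlated at 0.164, 0.103 and 0.156, so the numbers were taken to pair the arrays, and over all probes the correlations were 0.166, 0.224 and 0.0871. The main limma fit did not use this pairing. Differences, intervals and adjusted p are unpaired wherever the replicate block is not named. The alternatives were no background correction, an offset of 16, the processed signal, scaling to the 75th percentile, the deposited table, dim probes left out, outlier spots kept, the replicate block, the position surface, each array left out and, chosen after seeing the data, a gain by position in place of a surface.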

Additional observations from a re-analysis of the deposited data

How the results depend on the processing

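The number of Hox probes called higher outside the middle, 0 as reported, was 1 with the processed signal, the deposited table, the position surface, dim probes left out and the replicate block, in each case *Hoxb9*. The replicate block changed no other Hox call and gave 1450 higher and 791 lower of all probes against 1038 and 586. The processed signal called 5 Hox probes lower outside the middle and 1 in it. In the middle, 2 Hox probes were called higher as reported, 1 without background correction, 0 with the position surface, 0 with the position gain, and 0 to 2 with an array left out. In the other lists (9 genes higher, 4 lower) 14 were higher with scaling to the 75th percentile, 12 with the replicate block (*Pbx2*, *Flt1* and *Esam* added) and 6 to 8 with an array left out, while 2 were lower with an offset of 16, 16 with the processed signal and 2 to 3 with an array left out. The 2 settings without quantiles moved the median difference of all probes to -0.52 (processed signal) and -0.33 (75th percentile), so that Hox differences under them are to be read against those medians.

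The median over Hoxa probes outside the middle, 0.35 as reported, was 0.21 without background correction, 0.03 with the processed signal and 0.67 with dim probes left out (0.23 to 0.51 with an array left out). For Hoxb (0.06) it was 0.32 with the processed signal, 0.30 with the surface and 0.30 with the gain (-0.04 to 0.19). For Hoxc (-0.03) it was -0.64 with the processed signal, -0.45 with 75th percentile scaling, 0.11 with the surface, 0.09 with the gain and 0.11 with dim probes left out (-0.15 to -0.02). For Hoxd (-0.19) it was -0.65, -0.53 and -0.59 with the processed signal, 75th percentile scaling and dim probes left out (-0.39 to -0.09). With any or all spots of a probe required to be above background, 14 and 20 Hox genes were again detected.

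Direction turned for *Hoxb2* (0.17 with the surface, 0.14 with the gain), *Hoxb5* (-0.26 and -0.03), *Hoxd8* (0.05, 0.04 and, with the processed signal, 0.32), the middle probe of *Pknox1* (-0.47 and -0.13), *Hoxb6* (0.00 with the deposited table), *Hoxb7* (0.43 with the processed signal, 0.14 with 75th percentile scaling, 0.04 with the deposited table, 0.29 with the surface, 0.28 with the gain) and *Hoxc6* (-0.71, -0.07 with scaling, -0.55 with the surface, -0.49 with the gain). With an array left out the ranges were -0.01 to 0.56 for *Hoxa2*, -0.05 to 0.41 for *Hoxa10*, 0.00 to 0.17 for *Hoxb4*, -0.19 to 0.20 for *Hoxb6*, -0.11 to 0.14 for *Hoxb7* and -0.11 to 0.31 for *Hoxc6*. The causes were not tested. Among values of single probes under an alternative, 448 kept direction and side of the threshold, 48 lost the call, 5 gained it and 27 turned.

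Over all probes, the calls (1038 higher, 586 lower) were 658 and 399 without background correction, 1204 and 9878 with the processed signal, 1532 and 1080 with scaling, 646 and 1590 with the surface, 469 and 867 with the gain, and 477 to 1270 and 278 to 508 with an array left out. Signal over background limits the probes that were dim in a line to bounds.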
